A study of Mus musculus with 6 samples.

Results

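The ID proteins and the basic helix-loop-helix (bHLH) factors they bind were followed in mouse leukemia cells that express AE9a, a shortened AML1-ETO fusion. The 9 genes are the ID genes Id1, Id2, Id3 and Id4, the E protein genes Tcf3, Tcf12 and Tcf4, and the class II bHLH genes Tal1 and Lyl1. They were chosen by name, and all 9 of 9 have a row among the 21881 genes of each of the 2 deposited tables. The cells, of mixed C57/B6X129SV background, carry Id1 alleles flanked by loxP sites and CreER, a Cre recombinase switched on by tamoxifen metabolites, so the controls carry both too. The groups of 2 samples each were CBD at 15 µM for 16 h, 4-hydroxytamoxifen (4-OHT) at 0.1 µM for 48 h, and control cells. CBD is named in the design only by these letters, as an inhibitor of Id1. The sources used here do not give the promoter that drives CreER, the exons between the loxP sites, the number of clones or a vehicle for the controls, and list no arm with 4-OHT but without loxP sites.

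Each table lists 1 FPKM value (fragments scaled to transcript length and library size) for a treated group and 1 for a control column, with the p and q values of the authors' Cuffdiff test. No value of a single sample is used here, so no SD or interval stands beside a level, and the depth is unknown. A gene is said to have risen or fallen where its status is OK, meaning that it was tested, and its q in the authors' deposited table is under 0.05. Fold changes are log2 of the treated over the control FPKM, with 0.1 FPKM added to each, which understates the change of low genes. The control column differs between the tables, which were made apart, and the libraries behind each are not stated. Nothing says that samples of 1 group came from different cultures, so the p values may measure technical spread only.

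E proteins are class I bHLH factors that bind DNA as dimers at E-box sites. They pair with themselves or with class II factors such as TAL1 and LYL1, which are restricted to particular tissues and act in blood stem cells and in red cell and mast cell precursors. ID proteins have the helix-loop-helix but no basic region, so an E protein dimerised with an ID protein does not bind DNA. In human AML1-ETO leukemia cells the fusion protein sits in a complex with E proteins, LYL1, LMO2 and LDB1.

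The RefSeq promoter table matched 7 of the 9 genes, all but Id1 and Tcf4. The sequences shown belong to Id2, Tcf12 and Lyl1, whose levels passed the test with an agent and whose windows hold an E-box, the site that E proteins bind. Each runs from 250 bases before to 50 after the RefSeq start, on build GRCm38.p6, 5′ to 3′ on the gene's strand. Capitals mark the E-box, CANNTG, where N is any base. A site that fits this pattern on either strand fits it on both, though its middle letters may differ.
Id2, chr12:25096043-25096342, minus strand: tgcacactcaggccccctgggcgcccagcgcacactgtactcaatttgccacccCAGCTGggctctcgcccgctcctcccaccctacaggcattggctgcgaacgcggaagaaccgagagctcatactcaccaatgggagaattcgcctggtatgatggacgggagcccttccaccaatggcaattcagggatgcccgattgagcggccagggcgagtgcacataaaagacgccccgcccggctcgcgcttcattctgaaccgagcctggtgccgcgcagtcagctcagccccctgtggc
Tcf12, the first of 3 starts, chr9:72111770-72112069, minus strand: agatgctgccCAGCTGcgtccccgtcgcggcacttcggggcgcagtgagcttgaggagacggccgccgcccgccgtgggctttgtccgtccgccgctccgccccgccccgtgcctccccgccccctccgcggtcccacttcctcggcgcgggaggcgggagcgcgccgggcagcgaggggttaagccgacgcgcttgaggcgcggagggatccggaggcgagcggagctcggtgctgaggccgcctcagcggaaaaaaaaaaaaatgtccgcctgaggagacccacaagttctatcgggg
Lyl1, chr8:84701207-84701506, plus strand: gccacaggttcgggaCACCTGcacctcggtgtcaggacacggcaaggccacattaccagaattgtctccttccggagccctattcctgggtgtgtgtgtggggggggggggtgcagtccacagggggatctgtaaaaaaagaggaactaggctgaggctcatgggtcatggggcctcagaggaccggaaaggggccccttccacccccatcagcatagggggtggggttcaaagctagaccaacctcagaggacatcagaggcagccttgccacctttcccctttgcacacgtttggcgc
Id2 and this start of Tcf12 hold the same E-box letters, CAGCTG, and Lyl1 holds CACCTG. Tcf3 and Tal1, which passed neither test, have an E-box too: CACTTG in the Tcf3 window and CATCTG in 1 of the 2 Tal1 windows. The other Tal1 window and the Id3 and Id4 windows hold none. Of all 32851 promoter windows of this length, 72.3% hold at least 1 CANNTG, so a match is common and describes letters only.

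The marker check of the cells was mixed. Kit, the stem cell factor receptor, stood at 75.0 FPKM with CBD, 78.8 with 4-OHT, and 85.0 and 95.6 in the control columns of the CBD and 4-OHT tables, and the blood cell factor Gata2 at 51.3 FPKM or more in all 4 columns. Ptprc, the pan-leukocyte antigen CD45, was at or under 0.417 FPKM and Mpo, myeloperoxidase, at or under 0.0662 FPKM in every column, while Hoxa9 and Elane were listed at 0 throughout. Of the 15 leukemia and progenitor markers found, 7 or 8 reached 1 FPKM in each column. Brain markers were high with CBD. Of the tested ones, 16 of 17 neuron genes, 8 of 9 astrocyte genes and 8 of 10 oligodendrocyte genes rose and none fell. Of all genes tested with CBD, 18.4% rose and 7.74% fell. Summed FPKM of the neuron list was 274.4 with CBD and 24.1 in its control, against 11.9 with 4-OHT and 11.7 in its control. The astrocyte list summed to 264.4 FPKM with CBD and 94.0 in its control, and to 76.3 with 4-OHT and 64.0 in its control. The oligodendrocyte list summed to 238 FPKM with CBD and 49.0 in its control, and to 46.7 with 4-OHT and 48.9 in its control. Of the other marker lists tested with CBD, 3 of 9 microglia and macrophage genes and 4 of 7 stromal and endothelial genes rose and none fell, while 1 of 10 leukemia and progenitor genes rose and 2 fell. With 4-OHT, 1 of 4 neuron, 1 of 1 microglia and 1 of 3 stromal genes rose. In that comparison 1 of 5 astrocyte genes rose and 1 fell, and 1 of 2 oligodendrocyte genes fell. Of 8 leukemia genes, 4 rose and 3 fell. Of all genes tested with 4-OHT, 27.2% rose and 16.9% fell. In the control of the CBD table, the neuron markers Rbfox3 and Gap43, the astrocyte marker S100b and the oligodendrocyte markers Mog and Olig2 were listed at 0. In bulk RNA, fewer cells of a type and less RNA per cell cannot be told apart.

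Tal1 was the most abundant of the 9 genes per transcript length in all 4 columns. In the control of the CBD table the order of FPKM levels ran Tal1, Tcf3, Lyl1, Tcf12, Id1, Id3, Id2, Tcf4, Id4, and in the control of the 4-OHT table Tal1, Tcf3, Tcf12, Lyl1, Id1, Id2, Id3, Tcf4, Id4. Whether neighbours in these orders differ cannot be said, since no spread between samples is at hand. In the CBD column Id2 stood in the fourth place, above Tcf12 and Id1. In the 4-OHT column Id1 stood in the eighth place, below Tcf4. Among all 21881 genes, Tal1 was above 91.5% to 93.5% of genes in every column, whereas Tcf4 was above 51.5% to 57.9%.

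**Figure D1:**
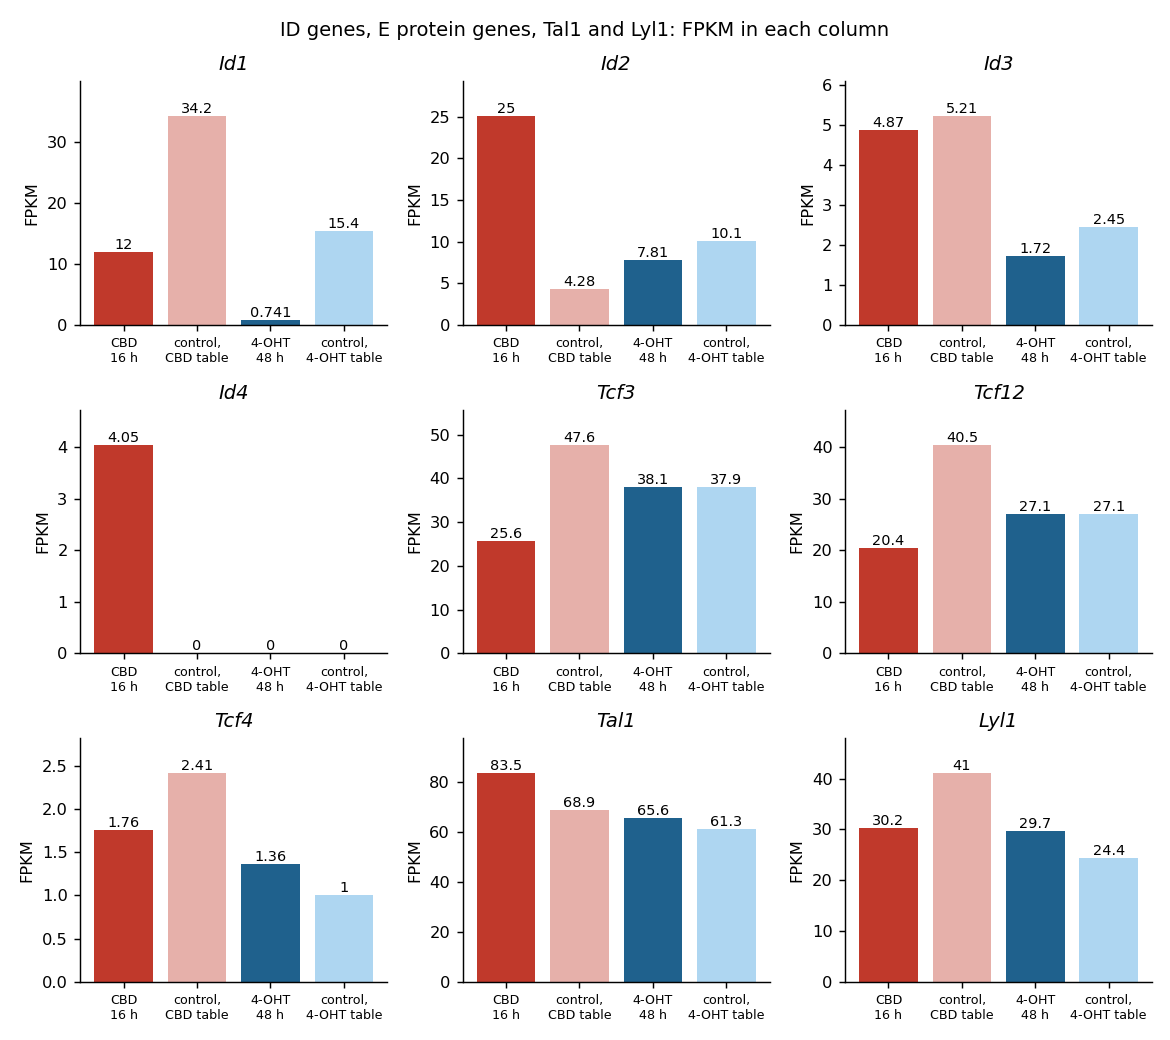
FPKM of each of the 9 genes (y axis, linear, its own scale in each panel) in the 4 deposited columns, 1 bar per column with its value above it; there are no error bars because each column is 1 value per group. Id1 is lowest with 4-OHT at 0.741 FPKM, Id2 is highest with CBD at 25.0 FPKM, and Id4 is above 0 in the CBD column alone.

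Id1, the ID gene that both agents are aimed at, lies on chromosome 2 from 152562010 to 152563146 in mm9, the build of all gene positions given here. With 4-OHT it stood at 0.741 FPKM, against 15.4 FPKM in the control of the same table, 95.2% lower (log2 fold −4.21; the q in the authors' deposited table is printed as 0). Of 11232 genes tested with 4-OHT, 15 had a lower log2 fold, and none of these 15 passed the test. With CBD, Id1 stood at 11.95 FPKM, against 34.2 FPKM in its control. This difference missed the threshold (log2 fold −1.51, p = 0.0458, q = 0.133 in the authors' deposited table). Both treated columns are below both control columns, although the CBD value is close to the 15.4 FPKM of the 4-OHT control (log2 fold −0.37, not tested). The share of such folds that passed was counted. Of 419 genes tested with CBD at a mean of at least 10 FPKM and with a log2 fold at least as large as that of Id1 in either direction, 76.8% passed. Of the 167 among them whose longest transcript is at most 1.5 times that of Id1 (1160 bp), 44.3% passed.

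Id2, an ID gene with roles in lymphoid and neural cells, lies on chromosome 12 from 25778664 to 25780957. It stood at 25.0 FPKM with CBD, against 4.28 FPKM in its control. It rose 5.85-fold (log2 fold 2.52, q = 9.48e-08 in the authors' deposited table). With 4-OHT it stood at 7.81 FPKM, against 10.1 FPKM in its control, and fell (log2 fold −0.36, q = 0.00555 in the authors' deposited table). The CBD column was above all others, while the 4-OHT column lies between the 2 control columns. Against the other table's control the CBD difference kept its sign at a log2 fold of 1.30, and the 4-OHT difference turned to 0.85. Id1 FPKM was 0.477 times that of Id2 with CBD and 7.98 times in its control. With 4-OHT it was 0.0948 times that of Id2, and 1.53 times in its control.

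Id3, which acts beside Id2 in lymphoid cells and lies on chromosome 4 from 135699737 to 135701307, passed neither test. Its level was 4.87 FPKM with CBD and 5.21 FPKM in the control (q = 0.961 in the authors' deposited table). With 4-OHT it was 1.72 FPKM, against 2.45 FPKM in the control (log2 fold −0.48, q = 0.152 in the authors' deposited table). The control columns differ 2.13-fold in Id3, more than either treated column differs from its own control. Id4, an ID gene best known from neural precursors and glia, lies on chromosome 13 from 48356796 to 48359405. It was listed at 4.05 FPKM with CBD and at 0 in the other 3 columns. It did not pass the test with CBD (q = 0.138 in the authors' deposited table) and was not tested with 4-OHT. By q values of the same table, C1qb, at 4.84 FPKM with CBD and 0 in its control, missed too (q = 0.159). C1qa passed at 5.18 against 0.0284 FPKM (q = 0.00012). Aqp4 passed at 4.57 against 0.00516 FPKM (q = 3.15e-05). Gap43 passed at 14.9 against 0 FPKM (q = 0.0245). These genes are named after their values were seen. With its control listed at 0, the miss of Id4 thus says little about its change. No fold is given for Id4, since its controls are at 0. The brain markers above are high in that same CBD column, and their part in the Id4, Id2 and Tcf4 values was not tested.

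The bHLH genes of other tissues give a further measure of that column. Of 39 other class II genes, 16 were listed at 0 with CBD and 28 in its control, and 27 with 4-OHT and 30 in its control. Of 9 tested with CBD, 1 rose, where 18.4% of all tested genes did, and none fell. It was Olig1, an oligodendrocyte lineage factor that is also on the oligodendrocyte list, at 5.57 FPKM with CBD and 0.0127 FPKM in its control (log2 fold 5.65, q = 8.46e-07 in the authors' deposited table). The neuronal factors Neurod2 and Neurod6 were at 0.593 and 0.521 FPKM with CBD and listed at 0 in the other 3 columns. Neither passed the test with CBD (q = 0.168 each in the authors' deposited table), and both are named after their values were seen. Their controls are listed at 0, so these misses, like that of Id4, say little. On the same list, Neurod1 and Neurod4 were at 0.0516 and 0.0677 FPKM with CBD, and Neurog1 and Neurog2 at 0. Of 4 class II genes tested with 4-OHT, 3 rose, where 27.2% of all tested genes did, and none fell. Among them were Bhlha15, a factor of secretory cells, at 1.56 FPKM against 0.6997 in its control (log2 fold 1.06), and the somite factor Mesp2, at 2.84 against 1.81 FPKM (log2 fold 0.62). Against the other table's control 1 of the 3 keeps its sign, and the log2 fold of Bhlha15 is −1.16.

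Among the E protein genes, Tcf12, which encodes HEB and lies on chromosome 9 from 71692059 to 71959626, fell with CBD. It stood at 20.4 FPKM, against 40.5 FPKM in its control (log2 fold −0.99, q = 0.00138 in the authors' deposited table). With 4-OHT it stood at 27.1 FPKM in both columns (log2 fold −0.00087, q = 0.992 in the authors' deposited table). Tcf12 with CBD was the lowest of the 4 columns, and its log2 fold against the other table's control was −0.41.

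Tcf3, on chromosome 10 from 79871910 to 79896398, encodes both E2A proteins. It stood at 25.6 FPKM with CBD, against 47.6 FPKM in its control, but its status there is FAIL, so this difference has no test. With 4-OHT it stood at 38.1 FPKM, against 37.9 FPKM in its control (log2 fold 0.01, q = 0.894 in the authors' deposited table). As for Tcf12, the CBD column is the lowest of the 4. Tcf4, an E protein gene of dendritic cells and neurons on chromosome 18 from 69504146 to 69847621, was low throughout. It stood at 1.76 FPKM with CBD, against 2.41 FPKM in its control (log2 fold −0.43, q = 0.405 in the authors' deposited table). With 4-OHT it rose to 1.36 FPKM, against 1.002 FPKM in its control (log2 fold 0.41, q = 0.00229 in the authors' deposited table). That 4-OHT difference turned to −0.78 against the other table's control, since that column is the highest of the 4.

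Tal1, on chromosome 4 from 114732132 to 114744360, encodes a factor required for blood formation and passed neither test. It stood at 83.5 FPKM with CBD, against 68.9 FPKM in its control (log2 fold 0.28, q = 0.461 in the authors' deposited table). With 4-OHT it stood at 65.6 FPKM, against 61.3 FPKM in its control (log2 fold 0.10, q = 0.159 in the authors' deposited table). Lyl1, a close relative on chromosome 8 from 87225356 to 87228615, stood at 30.2 FPKM with CBD, against 41.03 FPKM in its control (log2 fold −0.44, q = 0.315 in the authors' deposited table). With 4-OHT Lyl1 rose to 29.7 FPKM, against 24.4 FPKM in its control (log2 fold 0.28, q = 0.000325 in the authors' deposited table). This 4-OHT difference turned to −0.47 when set against the control of the CBD table. The Tal1 FPKM was 2.76 times that of Lyl1 with CBD and 1.68 times in its control, and 2.21 times with 4-OHT and 2.51 times in its control.

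In all, 2 of 8 tested members differed with CBD, where 26.2% of all tested genes did: 1 rose, where 18.4% of all did, and 1 fell, where 7.74% did. With 4-OHT, 4 of 8 tested members differed, where 44.1% of all tested genes did: 2 rose, where 27.2% of all did, and 2 fell, where 16.9% did. The totals are near those of all genes, so the number of calls sets the family apart in neither comparison. Among the 8 tested with CBD is Id4, whose miss says little, as given above. The sizes that passed differ between the tables: called genes had a median absolute log2 fold of 1.71 with CBD and 0.31 with 4-OHT. A change of 2-fold or more was seen in 34.9% of genes tested with CBD and 3.75% of those tested with 4-OHT, and of the 9 genes Id1 alone reached it with 4-OHT. Of the members that changed, the sign held against the other table's control for 2 of 2 with CBD and for 1 of 4, Id1, with 4-OHT.

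**Figure D2:**
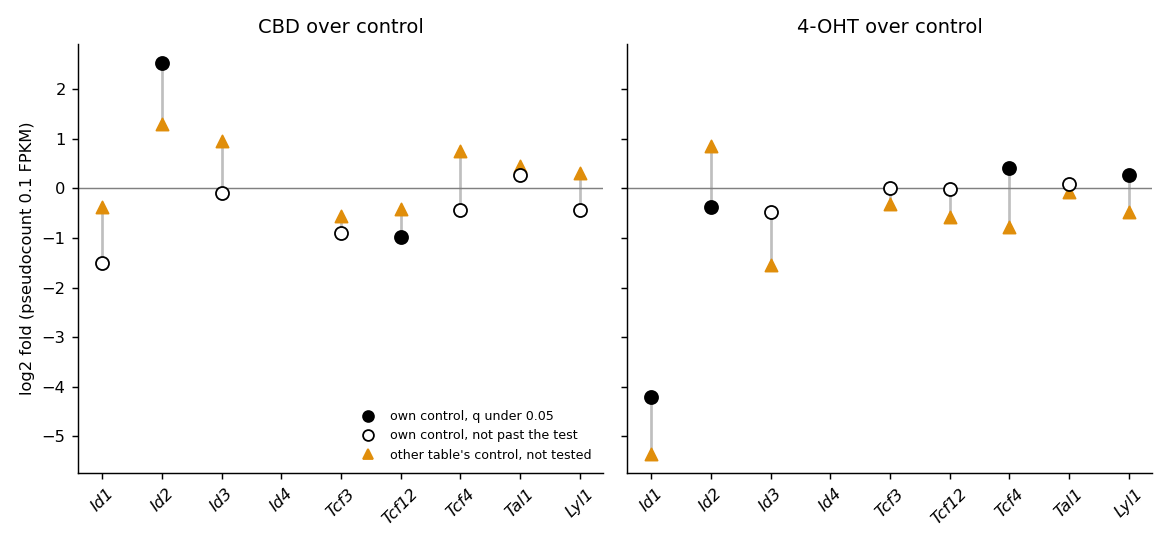
Log2 fold (y axis, 0.1 FPKM added) of each gene with CBD (left) and with 4-OHT (right). Circles are folds against the control of the same table, filled where q is under 0.05, and triangles are folds of the same treated value against the other table's control, which were not tested; Id4 has no point because its controls are listed at 0. The 4-OHT folds of Id2, Tcf4 and Lyl1 lie on opposite sides of 0 for the 2 controls, as do, without passing the test, those of Tcf3 and Tal1 with 4-OHT and of Id3, Tcf4 and Lyl1 with CBD; Id1 with 4-OHT lies at −4.21 and −5.35.

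The balance of ID to E protein transcripts differed from control in opposite directions with the agents. The summed FPKM of the 4 ID genes was 0.961 times that of the 3 E protein genes with CBD and 0.482 times in its control, a 1.99-fold higher ratio. With 4-OHT the ratio was 0.155, against 0.424 in its control (log2 difference −1.46). These are single values with no test, and transcript sums do not measure protein. The ID sum was 45.9 FPKM with CBD and 43.6 in its control, while the E protein sum was 47.8 FPKM with CBD and 90.5 in its control. The near-equal ID sums held less Id1 (11.95 FPKM with CBD, 34.2 in its control) and more Id2 (25.0 and 4.28) and Id4 (4.05 and 0). The higher CBD ratio thus came with a lower E protein sum and with higher Id2 and Id4 values that made up for the lower Id1. The brain markers are high in that column, and their part in the ratio was not tested. Without Id4 the log2 difference of the ratio with CBD was 0.86. The ratio was not computed without Id2, at 25.0 FPKM with CBD and 4.28 in its control. With 4-OHT the ID sum was 10.3 FPKM, against 28.0 in its control, and the E protein sum 66.5 FPKM, against 66.0. There the lower ratio came with a lower ID sum. A member without a valid test, Tcf3, makes up 53.6% of the E protein sum with CBD, and without it the CBD ratio was 2.04-fold higher.

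The make-up of the ID sum differed as well. Id1 made up 26.0% of ID transcripts with CBD and 78.3% in its control, and Id2 54.5% with CBD and 9.81% in its control. With 4-OHT, Id1 made up 7.21%, against 55.2% in its control, and Id2 76.0%, against 36.1%. Id2 was thus the leading ID transcript in both treated columns, and Id1 in both control columns. The make-up of the E protein sum varied less: Tcf3 held 52.6% to 57.4% and Tcf12 40.7% to 44.7% of it in the 4 columns. With Id1 left out, the ratio of the other 3 ID genes to E protein genes was 0.711 with CBD and 0.105 in its control, and 0.143 with 4-OHT and 0.190 in its control. Adding Tal1 and Lyl1 to the E protein sum lowers the CBD change to a log2 difference of 0.39.

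**Figure D3:**
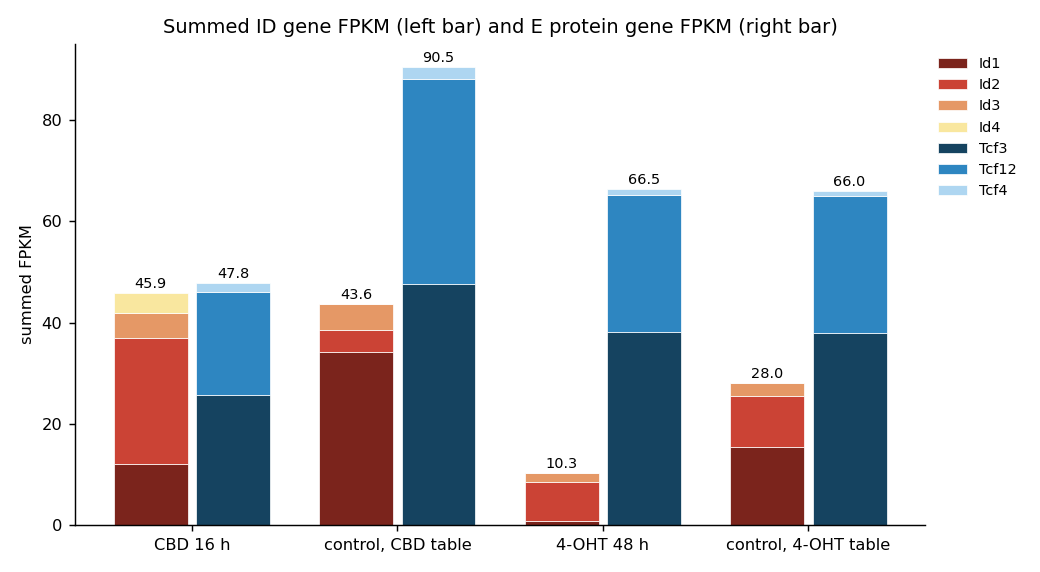
Summed FPKM (y axis, linear) of the 4 ID genes (left bar of each pair) and the 3 E protein genes (right bar) in the 4 columns, stacked by gene, with the sum printed on top; each bar is 1 value per group with no error. The ID bar nearly reaches the E protein bar with CBD (45.9 and 47.8 FPKM), and with 4-OHT it is 10.3 FPKM beside 66.5.

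The control columns themselves differed in these genes. Id1 was 2.21-fold, Id3 2.13-fold and Tcf4 2.41-fold higher in the control of the CBD table than in that of the 4-OHT table, and Id2 was 0.424 times as high. Of 10867 genes tested in both tables, 9.16% differ between the controls by as much as Id1 and 7.93% by as much as Id2. In all, 5 of the 9 genes differ by at least 1.5-fold, where 30.6% of the genes do. The ID to E protein ratio is closer in the controls, at 0.482 and 0.424, and against the other table's control its log2 difference was 1.181 with CBD and −1.64 with 4-OHT.

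Transcript length moved with the CBD folds. Across 5861 genes at 10 FPKM or more in both controls, the log2 fold with CBD declined with the length of the longest annotated transcript (Spearman rho = −0.42, genes not being independent), and with 4-OHT rho was −0.05 across 5993 genes. The E protein transcripts are long (Tcf3 2950, Tcf12 6299 and Tcf4 8577 bp) and the Id1, Id2 and Id3 transcripts short (1160, 1969 and 1278 bp). The trend at the length of Tcf12 is a log2 fold of −0.37, and removing it leaves −0.62 in place of −0.99. For Id1 the log2 fold becomes −1.87 and for Id2 2.36, while Tcf4 turns to 0.31. The ID to E protein ratio becomes 1.54-fold higher with CBD in place of 1.99-fold. The trend is read at the longest annotated transcript, and which transcript these cells use is not known. The part of length in these values was not tested.

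**Figure D4:**
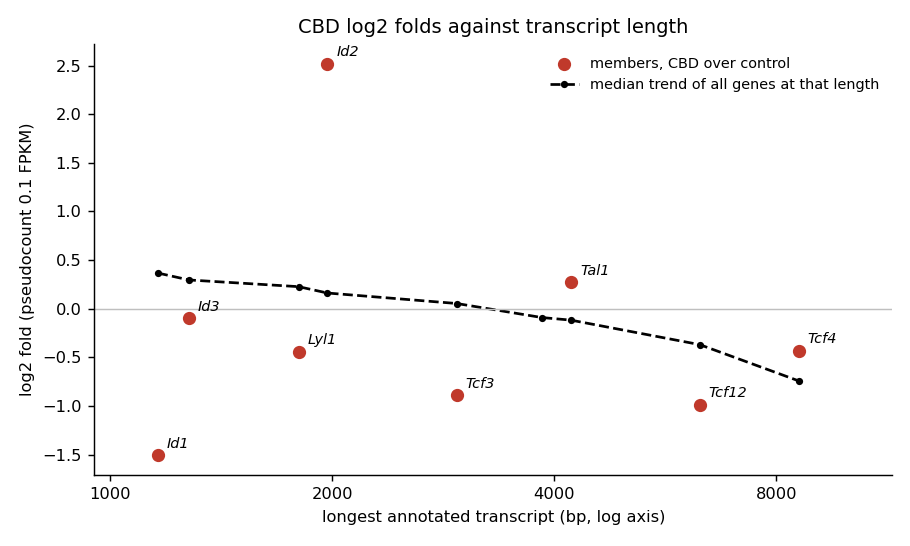
CBD log2 fold (y axis, 0.1 FPKM added) of 8 of the genes against the longest annotated transcript (x axis, bp, log scale); Id4 is left out because its control is listed at 0. The dashed line joins the median trend of all genes at the lengths of the members, from 0.37 at Id1 to −0.74 at Tcf4; Id1, Id3, Lyl1, Tcf3 and Tcf12 lie below it and Id2, Tal1 and Tcf4 above it.

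Other genes of the network were taken from lists. Every gene named from them with a fold against its own control rose or fell by the same q threshold unless stated otherwise. The counts below stand beside those of all tested genes, of which 18.4% rose and 7.74% fell with CBD. With 4-OHT, 27.2% of all tested genes rose and 16.9% fell. The partners of TAL1 and LYL1, which include LMO and LDB1 bridging proteins and GATA and RUNX factors, were measured in 16 of 16 cases. With CBD, 5 of 15 tested genes fell and none rose (median log2 fold −0.29, against 0.29 for all tested genes). Gata3 stood at 5.17 FPKM with CBD against 14.0 in its control (log2 fold −1.42), Runx1, the mouse counterpart of the AML1 part of the fusion, at 47.4 against 92.6 (log2 fold −0.97), and Ssbp3, an LDB1-binding protein, at 26.5 against 45.4 (log2 fold −0.78). Against the other table's control the Runx1 log2 fold with CBD is 0.32. With 4-OHT 7 of 14 rose and 4 fell (median 0.05, and 0.05 for all tested genes). Erg stood at 8.18 FPKM against 4.80 in its control and Gata3 at 10.9 against 7.46, while Ssbp3 stood at 63.0 against 90.2. All 3 of these take the opposite sign against the other table's control, as do 8 of the 11 that changed.

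E protein cofactors and corepressors change histone marks or recruit enzymes that do. With CBD 9 of 15 fell and none rose (median log2 fold −0.88). The corepressor gene Ncor1 stood at 9.01 FPKM with CBD against 34.7 in its control, and the acetyltransferase gene Ep300 at 9.46 against 32.4. Their longest transcripts are 9037 and 9566 bp, and with the length trend removed their log2 folds of −1.93 and −1.76 become −1.19 and −1.02. The list median becomes −0.73. All 9 were also lower against the other table's control. With 4-OHT 4 of 15 rose and 4 fell (median −0.08), by small amounts: Kat2b at 9.45 FPKM against 7.07 in its control, Kat2a at 46.0 against 56.1 and Sin3a at 37.7 against 33.1. Of these 8 genes 4 keep their sign against the other table's control, where the log2 fold of Kat2b is −0.01 and that of Kat2a 0.18.

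BMP and TGF-beta signals induce Id genes through SMAD factors. With CBD 4 of 27 tested genes of this pathway rose and none fell (median log2 fold 0.04). That is 14.8%, where 18.4% of all tested genes rose, so the rises do not set the list apart. One was the receptor gene Tgfbr1, at 9.34 FPKM with CBD against 3.14 in its control (log2 fold 1.54). The others were the receptor genes Bmpr1a, Acvr1 and Acvrl1, none above 1.34 FPKM with CBD, named after their values were seen. The brain markers are high in the same column, and their part in these rises was not tested. With 4-OHT 4 of 18 rose and 4 fell (median 0.04), 44.4% in all, where 44.1% of all tested genes changed. The co-receptor gene Eng stood at 2.31 FPKM against 5.18 in its control (log2 fold −1.13), Tgfbr2 at 1.98 against 3.31 (log2 fold −0.71) and Smad1 at 22.6 against 15.0 (log2 fold 0.59). Against the other table's control these 3 differences take the opposite sign, and 1 of the 8 that changed keeps it.

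Genes that E and ID proteins are known to regulate were followed too. Of 7 cell cycle inhibitor genes, 3 rose with CBD and none fell (median log2 fold 0.36). Cdkn2b stood at 34.6 FPKM with CBD against 4.54 in its control (log2 fold 2.90). Cdkn2a stood at 430 against 223 (0.95) and Cdkn1a at 83.0 against 50.3 (0.72). All 3 are also higher against the other table's control. With the length trend removed their log2 folds with CBD become 2.64, 0.47 and 0.60. With 4-OHT 6 of 7 rose and none fell (median 0.54), among them Cdkn1b at 23.0 FPKM against 12.1 in its control (log2 fold 0.93), Cdkn1a at 26.1 against 14.2 (0.87) and Cdkn2d at 28.3 against 19.5 (0.54). These 3 are lower than the control of the CBD table, and 2 of the 6 exceed it. A list of E protein targets in lymphoid cells had 4 rising and 2 falling among 11 tested with CBD (median 0.61), and 3 falling and none rising among 8 with 4-OHT (median −0.14). The repressor gene Gfi1 stood at 3.53 FPKM with CBD against 0.338 in its control (log2 fold 3.05). The other genes that rose, Ebf1, Notch1 and Dtx1, stood at 0.477, 0.395 and 0.984 FPKM with CBD. In its control they stood at 0.0246, 0.0243 and 0.00716 FPKM, and they are named after their values were seen. The brain markers are high in the same CBD column, and their part in these rises was not tested. Bcl11a stood at 12.2 FPKM with CBD against 34.4 in its control (−1.49) and Gfi1b at 53.0 against 89.5 (−0.75). With 4-OHT, Bcl11a stood at 26.1 FPKM against 28.8 in its control and Gfi1b at 106.7 against 116.8. Against the other table's control the sign held for all 6 that changed with CBD and for 2 of 3 with 4-OHT, and the 4-OHT log2 fold of Gfi1b is 0.25 there.

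TAL1 targets of red cell and mast cell precursors fell in 5 of 12 tested cases with CBD and rose in 1 (median log2 fold −0.60). Ank1, a red cell membrane gene, stood at 3.82 FPKM with CBD against 21.9 in its control (log2 fold −2.49), and Runx3 at 6.90 against 16.5 (−1.25). Ank1 has a longest transcript of 8366 bp, and its log2 fold is −1.77 with the length trend removed. Against the other table's control 4 of the 6 keep their sign. The exceptions are Runx1, given above, and the one that rose, the heme synthesis gene Alas2, named after its values were seen, at 11.8 FPKM with CBD, 6.34 in its control and 14.8 in the other table's control. With 4-OHT 2 of 13 rose and 4 fell (median −0.08): Nfe2 stood at 66.6 FPKM against 51.3 in its control, Kit at 78.8 against 95.6 and the corepressor gene Cbfa2t3 at 11.2 against 12.8. The sign held for 4 of these 6 against the other table's control, where the log2 fold of Nfe2 is −0.71.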

How the data were processed

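RNA was measured in 6 samples, 2 per group. Per the submitters' processing notes, Bowtie 0.12.2, Cuffdiff and the mm9 build were used; the Cuffdiff version and settings and the annotation are not stated in the sources used here. The FPKM values, 1 per group and table, were deposited by the authors, and so were the p-value and q-value of each gene, which were read as they stand. No test was added. Computed here were log2 folds with 0.1 FPKM added, ratios of summed FPKM, and a length trend (the median log2 fold in 20 bins of transcript length among genes with at least 10 FPKM in each control, interpolated), which was tested on simulated data. Lengths are the longest GENCODE vM21 transcripts, used with no coordinates. Positions in mm9 are the tables' own, with 1 added to each start. The members and the gene lists were chosen with earlier results of these data known. Of 153 genes in 9 pathway lists all were found, and of 73 in 6 marker lists 71. Named were all members and, per list and comparison, up to 3 genes with the largest absolute log2 fold among those with q under 0.05, a mean of at least 1 FPKM and no column at 0, and for Id1 and Id2 the 3 genes with the closest profile. One gene that this rule names is not reported here by name, and the counts of its list include it. Alternatives were a q threshold of 0.01, a 1 FPKM minimum, pseudocounts of 1 and 0.01 FPKM, the other control column, centring on the median fold, the length trend and other sums. Python 3.11.15, pandas 2.3.3 and numpy 2.4.6 were used.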

Additional observations from a re-analysis of the deposited data

How the results depend on the processing

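No paired analysis was possible because the tables give 1 value per group, and for the same reason no sample could be left out. Of 16 alternative values of the member counts and balances, 13 stayed within 1.5-fold of the value reported. The other 3 were balances: without Id1 the log2 difference was 2.76 with CBD and −0.41 with 4-OHT, and with Tal1 and Lyl1 added to the E protein sum it was 0.39 with CBD. Some of the 13 could not have moved. Every tested member reaches 1 FPKM, so that minimum removes none, and Id4 is listed at 0 in both columns of the 4-OHT comparison. All balance differences kept their sign under the alternatives. None of them left out Id2, which made up 54.5% of the ID sum with CBD and 9.81% in its control. Id2 stood at 25.0 FPKM with CBD and 4.28 in its control, and Id4 at 4.05 and 0. Id1 and Id3 were lower with CBD than in its control. Without Id4 the CBD log2 difference was still 0.86, and there Id2 alone of the ID genes was higher with CBD. The balance without Id2 itself was not computed. Of 80 alternative folds of single members, Id4 left out because its controls are listed at 0, 68 stayed within 1.5-fold of the fold reported. Against the other table's control, Id1 and Id2 with CBD moved further but kept their sign (−0.37 and 1.30). So did Id1 and Id3 with 4-OHT (−5.35 and −1.54). With a pseudocount of 1 FPKM, the Id1 fold with 4-OHT moved to −3.24. In all, 12 of the 80 took the opposite sign, some of them while within 1.5-fold. Of these 12, 3 belong to members that had passed the test, all with 4-OHT against the other table's control: Id2 at 0.85, Tcf4 at −0.78 and Lyl1 at −0.47. The other 9 belong to members that had not passed it. With CBD they are Id3 at 0.96, Tcf4 at 0.76 and Lyl1 at 0.30 against the other table's control, and Tcf4 at 0.31 with the length trend removed. With 4-OHT they are Tcf3 under 3 alternatives, Tcf12 under 1 and Tal1 under 1, all within 1.5-fold of the fold reported. Leaving out Tcf3 was chosen after seeing the data. The cause of these differences was not tested. The depth is unknown, so no detection limit could be set for Id4.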

Other observations

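ID proteins are short-lived, and genes of their turnover were measured in 6 of 6 cases. With CBD 2 of 6 fell and none rose (median log2 fold −0.46). Cdc20, an activator of the ubiquitin ligase that marks mitotic proteins, stood at 35.1 FPKM with CBD against 112.4 in its control (log2 fold −1.68), and Usp1, a deubiquitinase known to stabilise ID proteins in human cells, at 28.4 against 55.4 (−0.96). Both were also lower against the other table's control. With 4-OHT 1 rose and 1 fell: Fzr1, the other activator of that ligase, stood at 37.9 FPKM against 29.6 in its control (log2 fold 0.36), and Usp1 at 78.4 against 97.3 (−0.31), and this Usp1 difference is 0.50 against the other table's control.

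The HES, HEY and BHLHE40/41 genes encode bHLH repressors outside the E protein network. With CBD 1 of 8 tested rose and none fell (median log2 fold 0.37). With 4-OHT 3 of 5 rose and none fell (median 0.33). Bhlhe40, a stress and hypoxia response factor, stood at 39.2 FPKM with 4-OHT against 11.6 in its control (log2 fold 1.74), Hey2 at 1.58 against 1.01 (0.60) and Hes6 at 18.7 against 14.8 (0.33). The control of the CBD table held 45.1 FPKM of Bhlhe40, so its rise has the opposite sign there (−0.20).

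The genes whose profile over the 4 columns was most like that of Id2 were Plxdc2, Cd63 and Habp4, with Euclidean distances of 0.28, 0.39 and 0.44 between log2 values centred on each gene's mean, among 9323 candidates at 1 FPKM or more in every column. Cd63, a tetraspanin of lysosomes and granules, stood at 908 FPKM with CBD, 125 in its control, 200.3 with 4-OHT and 275 in its control. For Id1 the nearest candidates, the histone genes Hist1h2af, Hist2h4 and Hist1h3c, lay at 2.62, 2.76 and 2.82. Id1 itself stood at 0.741 FPKM with 4-OHT, under the 1 FPKM asked of every candidate. Genes that fell as low were thus not searched, and whether any is closer to Id1 cannot be said. With only 4 columns, this describes likeness and no more.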
